A study of Sus scrofa with 30 samples.

Results

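The transcripts of prostaglandin metabolism were followed in single pig embryos across the days on which the conceptus grows from a sphere toward a filament. The genes were taken as 10 listed symbols of synthesis (PTGS1, PTGS2, PTGES, PTGES2, PTGES3), breakdown and reduction (HPGD, PTGR1, CBR1) and membrane transport (ABCC4, SLCO2A1), looked up by NCBI gene identifier among the 13103 genes of the table that covers all embryos. Of these, 9 were found, and CBR1 was not analysed here. RNA was sequenced from 30 embryos, 5 female and 5 male on each of Days 8, 10 and 12 after insemination. Embryos are named as in their labels (d12_f_245 is a female of Day 12). Each day was thus represented by 10 embryos.

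All gilts were German Landrace × Pietrain crossbreds whose cycles had been synchronized with Altrenogest, PMSG and human chorionic gonadotropin, and all were inseminated with semen of the same Pietrain boar, so these hormones were shared by every group. Embryos were flushed from the uterus and frozen singly, whole, so that embryonic disc, hypoblast and trophectoderm were read together. In such samples fewer cells of a type and less RNA per cell cannot be told apart. The dam of an embryo is not in its label, although some embryos of a day shared a dam, so p-values treat embryos of a day as independent. The total count per embryo ran from 6068212 (d12_f_245) to 34002508, with a median of 20163313, 22829955 and 20800355 on Days 8, 10 and 12. The trophectoderm list was found in full (10 of 10 markers), and its summed level was 20808 to 25449 CPM (counts relative to library size, scaled by TMM factors) on Day 8, 32905 to 50347 on Day 10 and 8730 to 26918 on Day 12. This sum was mostly KRT8 and KRT18, with means of 12248 and 10075 CPM on Day 8. Their means were 24502 and 16628.5 CPM on Day 10, and 10225 and 3585 CPM on Day 12. The other markers did not all follow them. By the threshold given below, 2 markers were higher on Day 12 than on Day 10 (GATA3 and TFAP2A). By the same threshold 4 were lower (CDX2, TEAD4, KRT8 and KRT18). The sum thus need not follow the amount of trophectoderm. Of the markers of maternal cells, 4 of 12 for leukocytes and 7 of 14 for the uterus were found, with summed levels of 36.3 to 50.8 and 5.72 to 12.4 CPM on Day 8, 30.7 to 41.5 and 6.46 to 15.7 on Day 10, and 60.8 to 338 and 23.2 to 81.5 on Day 12. The leukocyte gene S100A8 and the uterine gene UABP-2 had no count in any embryo on Day 8, and the uterine list includes FOXA2, which is also on the hypoblast list. The part of these cells in the Day 12 values was not tested. The embryo with the leukocyte sum of 338 CPM was also d12_f_245.

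Prostaglandins are lipid mediators made from arachidonic acid. A cyclooxygenase (PTGS1 or the inducible PTGS2) turns arachidonic acid into prostaglandin H2, and terminal synthases turn that into prostaglandin E2, F2α and others. Released prostaglandins act on receptors of nearby cells, are taken up again by the transporter SLCO2A1, and are inactivated first by the dehydrogenase HPGD and then by reductases. In the pig, prostaglandins of conceptus and endometrium are known for their part in the establishment of pregnancy.

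The genes lie on 6 chromosomes of Sscrofa11.1. PTGS1 (gene 397541, chr1:262456106-262482159), PTGES (654407, chr1:269911785-269924481), PTGES2 (100155133, chr1:268585725-268591356) and PTGR1 (397678, chr1:252373272-252395948) share chromosome 1. PTGES3 (100155956) lies at chr5:22000335-22022830, ABCC4 (100152536) at chr11:64089149-64309831, SLCO2A1 (100144510) at chr13:75108540-75189660 and HPGD (100156186) at chr14:15718261-15773534. PTGS2 (397590) lies at chr9:127850164-127858866, and 5286 bases of it are also within the span of PLA2G4A (chr9:127853581-128164825), the phospholipase that releases arachidonic acid. Whether the counting used strand is not given in the sources used here, so reads of that stretch may have been set aside or split between the genes. PTGR1 overlaps an RNA gene (LOC110256066, mean level 0.717 to 1.02 CPM over the days) by 1125 bases, and HPGD and ABCC4 overlap pseudogenes by 2978 and 2267 bases.

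Between Days 8 and 10 the inducible cyclooxygenase PTGS2 and the importer SLCO2A1 were downregulated and the reductase PTGR1 was upregulated. Between Days 10 and 12 PTGS2 was upregulated and the microsomal prostaglandin E synthase PTGES was downregulated. Set directly against Day 8, Day 12 embryos had less PTGES, PTGES3 and SLCO2A1. To count as differentially expressed (DEG), a gene needed a log2 fold change larger than 1 in size and an FDR below 0.001 in edgeR's quasi-likelihood test with Benjamini-Hochberg adjustment over all 13103 genes. The neighbouring comparisons share the Day 10 embryos, so their values are given side by side and not as separate evidence.

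From Day 8 to Day 10, 1 of the 9 genes was called higher, where 9.88% of all genes were, and 2 were called lower, where 4.20% were. Levels on the 2 days were fully separate in 4 of the 9 (PTGS2, PTGES3, PTGR1 and SLCO2A1), against 22.0% of all genes. The median log2 fold change of the 9 was -0.64, and that of all genes was 0.03. Between Days 10 and 12, 1 gene was called higher, against 14.9% of all genes, and 1 lower, against 8.39%. The days did not overlap in 1 of the 9 (PTGES), where 16.6% of all genes did not overlap, and the median log2 fold change was -0.28 beside 0.04 over all genes. From Day 8 to Day 12 no gene was called higher, against 22.0% of all genes, and 3 were called lower, against 10.4%. The edgeR count at an unadjusted p under 0.05 was 1 higher (PTGR1), and DESeq2 and a robust GLM also called 0 higher. The days did not overlap in 3 of the 9 (PTGES, PTGES3 and SLCO2A1), beside 31.7% of all genes, with a median log2 fold change of -0.63 against 0.09.

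**Figure D1:**
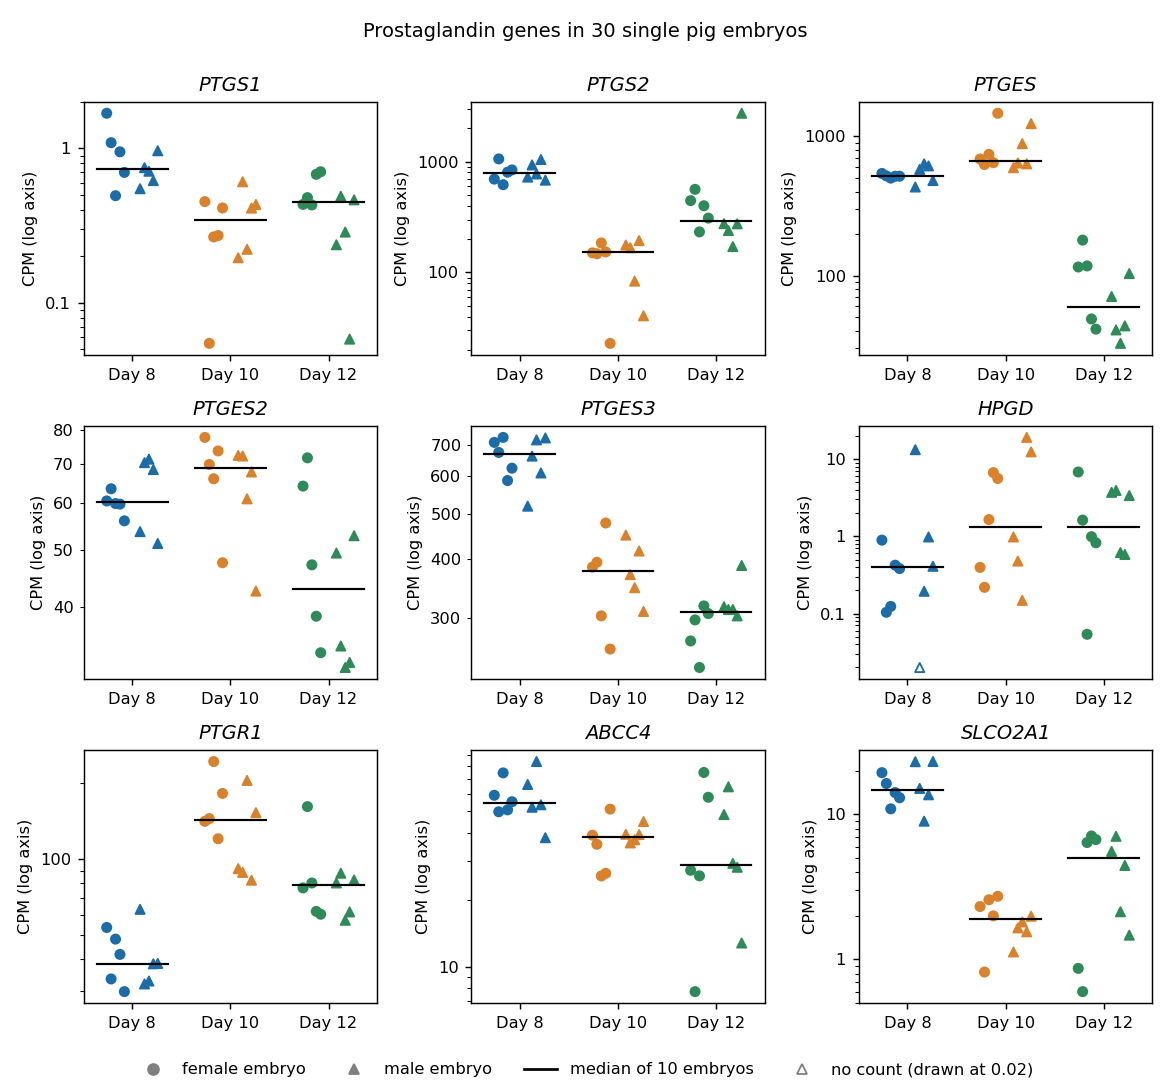
CPM (log axes that differ between panels) of the 9 genes in each embryo by day, with circles for female and triangles for male embryos and a line at the median of 10 embryos. PTGS2 is low on Day 10 and 2721 CPM in 1 Day 12 embryo, PTGES is low on Day 12, SLCO2A1 is highest on Day 8, and HPGD spreads widely within each day.

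**Figure D2:**
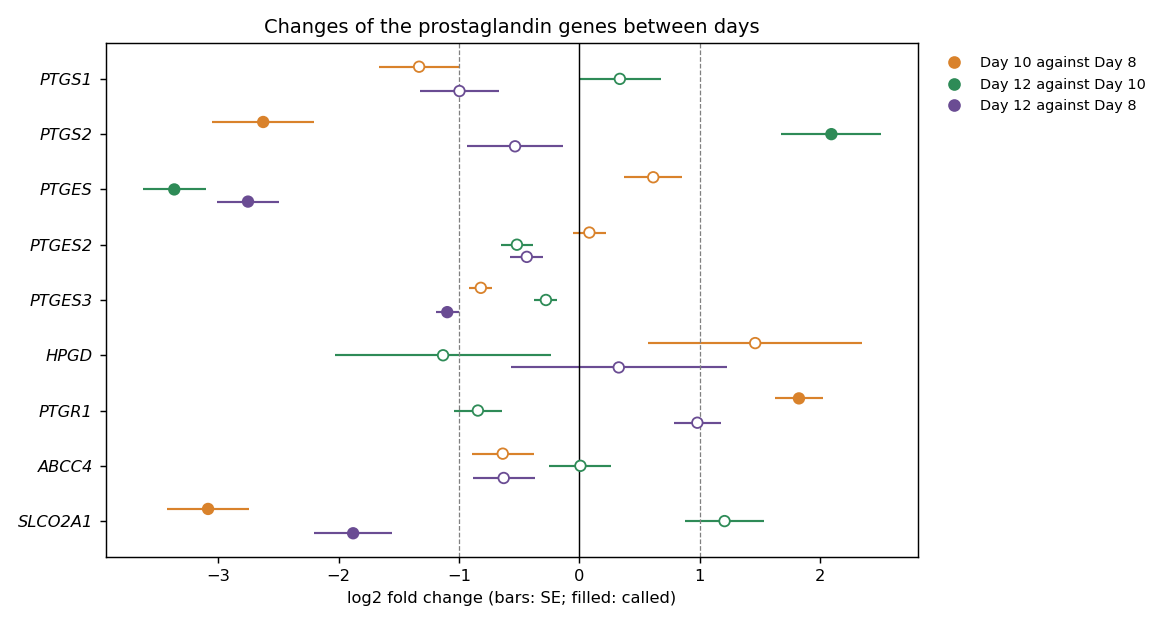
Log2 fold change of the 9 genes in the 3 comparisons between days, with bars for the standard error (SE), filled points for DEG and dashed lines at 1 and -1. PTGS2 lies at -2.63 from Day 8 to 10 and 2.09 from Day 10 to 12, and PTGES at 0.61 and then -3.37.

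PTGS2, the cyclooxygenase that is induced on demand in many tissues, had its highest median on Day 8. In the Day 8 embryos it ranged from 618 to 1056 CPM with a median of 786. Day 10 embryos had 22.9 to 194 CPM with a median of 152, and Day 12 embryos 171 to 2721 CPM with a median of 292. Every Day 10 embryo was below every Day 8 embryo, whereas Day 12 overlapped Day 10 at its lower end. No Day 12 embryo lay within the Day 8 range, since 9 were below it (171 to 561 CPM) and 1 above it (2721 CPM). The log2 fold change was -2.63 (SE 0.42, adjusted p = 5.07e-06, edgeR) from Day 8 to 10, which is 6.18-fold lower. It then was 2.09 from Day 10 to 12 (SE 0.42, adjusted p = 6.69e-05, edgeR), 4.26-fold higher. Day 12 against Day 8 gave -0.54 (SE 0.40, adjusted p = 0.227), which did not pass the test. DESeq2, which gives no p for a gene with an outlying count, gave PTGS2 no adjusted p in any of the 3 comparisons. Its log2 fold changes there were -2.63, 2.10 and -0.54. The robust GLM called Day 12 lower than Day 8 (log2 fold change -1.29).

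The Day 12 embryo apart from the others was d12_m_307, at 2721 CPM, where the other 9 embryos of that day had 171 to 561 CPM and a mean of 323 ± 123 (SD, n = 9). Without it, the rise from Day 10 was 1.29 on the log2 scale (adjusted p = 0.000156), and Day 12 against Day 8 became -1.34 and was called lower (adjusted p = 8.08e-05). The direction of the rise thus held without this embryo, but its size and the place of Day 12 relative to Day 8 did not. In d12_m_307 the summed markers were 18962 CPM for trophectoderm, 254 for epiblast (the highest of Day 12) and 1348 for hypoblast (the lowest of Day 12). The sums were 595 CPM for mesoderm (the lowest of Day 12), 91.0 for leukocytes and 52.5 for the uterus. For erythrocytes, with 2 of 8 listed markers found (HBB and ALAS2), the sum was 10.6 CPM, the highest of Day 12. On Day 12 the epiblast sum was mostly TDGF1 and LIN28A (means of 90.4 and 48.5 CPM). The hypoblast sum of that day was mostly APOA1 (mean 2551 CPM). The part of the cell types of these lists in the PTGS2 value was not tested. In PLA2G4A, which overlaps PTGS2, the mean level was 8.17, 8.63 and 26.7 CPM on Days 8, 10 and 12, so it did not fall on Day 10 as PTGS2 did. Without the Day 8 embryos in the fit, the rise of PTGS2 from Day 10 missed the FDR limit (log2 fold change 2.09, adjusted p = 0.00107).

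PTGS1, the cyclooxygenase that many tissues express constantly, was near the limit of detection and had at most 36 counts in any embryo. Its levels spanned 0.494 to 1.69 CPM on Day 8, 0.0546 to 0.608 CPM on Day 10 and 0.0582 to 0.706 CPM on Day 12. The Day 8 embryos were mostly higher but overlapped both later days. From Day 8 to 10 the log2 fold change was -1.33 (SE 0.33) and just missed the FDR limit (adjusted p = 0.00102), and it passed under DESeq2 (adjusted p = 0.000332). Day 12 differed from Day 10 by 0.34 (adjusted p = 0.408) and from Day 8 by -0.997 (adjusted p = 0.00721).

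The 3 prostaglandin E synthases followed different courses. PTGES, the inducible membrane-bound synthase that often acts with PTGS2, ranged from 432 to 635 CPM on Day 8 with a median of 519. Day 10 embryos had 595 to 1464 CPM with a median of 667, and Day 12 embryos 32.6 to 180 CPM with a median of 59.7. Day 8 and Day 10 overlapped, and all Day 12 embryos were below all embryos of both earlier days. The log2 fold change was 0.61 (SE 0.24, adjusted p = 0.0311, edgeR) from Day 8 to 10, which missed both limits. Day 12 against Day 10 gave -3.37 (SE 0.26, adjusted p = 2.07e-12, edgeR), 10.3-fold lower, and Day 12 against Day 8 gave -2.75 (SE 0.26, adjusted p = 5.91e-11).

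PTGES3, the cytosolic synthase that is also the HSP90 co-chaperone p23, had a mean of 656 ± 69.2 CPM on Day 8, 371 ± 68.4 on Day 10 and 306 ± 38.8 on Day 12 (SD, n = 10). All Day 10 and Day 12 embryos were below all Day 8 embryos, while Days 10 and 12 overlapped. Day 10 against Day 8 gave a log2 fold change of -0.82 (SE 0.10, adjusted p = 2.53e-08), which passed the FDR but not the fold limit. By Day 12 the gene was lower than on Day 8 by more than the fold limit (log2 fold change -1.10, SE 0.10, adjusted p = 1.70e-11, edgeR), whereas Day 12 against Day 10 gave -0.28 (adjusted p = 0.0130). The Day 12 call was lost in male embryos alone (log2 fold change -0.98), where the value lay just inside the fold limit.

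PTGES2, a membrane-associated synthase that is expressed steadily in many tissues, was not called in any comparison. It had a mean of 61.5 ± 6.93 CPM on Day 8, 65.1 ± 11.6 on Day 10 and 45.5 ± 14.2 on Day 12 (SD, n = 10). Its log2 fold changes were 0.08 (adjusted p = 0.624) from Day 8 to 10, -0.52 (adjusted p = 0.00151) from Day 10 to 12 and -0.44 (adjusted p = 0.00489) from Day 8 to 12. The sign of the first of these turned when libraries were scaled by total count alone (-0.088).

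The level of PTGES relative to PTGS2 in the same embryo was highest on Day 10. The CPM ratio of PTGES to PTGS2 was 0.493 to 0.823 on Day 8 (median 0.633), 3.27 to 63.8 on Day 10 (median 4.24) and 0.0380 to 0.505 on Day 12 (median 0.180). Day 12 reached the lower end of Day 8, so only Day 10 stood fully apart from both. Since transcript lengths were not used, the ratio compares embryos with each other and not the amounts of the 2 transcripts. Relative to PTGES, PTGES3 was at a ratio of 0.995 to 1.51 on Day 8, 0.176 to 0.757 on Day 10 and 1.66 to 9.61 on Day 12, and these ranges did not overlap.

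On Day 10 the 3 embryos with the lowest PTGS2 were the 3 with the highest PTGES and the 3 with the lowest PTGES2. In d10_f_454 the levels were 22.9 CPM of PTGS2, 1464 of PTGES and 47.5 of PTGES2. d10_m_453 had 40.6, 1233 and 42.5 CPM and d10_m_333 had 83.5, 886 and 61.1 CPM of the same genes. In the other 7 embryos of Day 10, PTGS2 was at least 147 CPM and PTGES at most 742 CPM. The same 3 embryos had the highest summed hypoblast markers of Day 10, at 1442, 1306 and 1471 CPM, and the mesoderm sums of d10_f_454 and d10_m_453, at 180 and 173 CPM, were the highest of that day. On Day 10 the hypoblast sum (7 of 9 markers found) was mostly APOA1, with a mean of 938 CPM. The mesoderm sum (5 of 8 found) was mostly HAND1, with a mean of 77.1 CPM. The epiblast sums of d10_f_454, d10_m_453 and d10_m_333 were 1299, 1069 and 1397 CPM. In d10_f_336 it was 1157 CPM, and in the remaining Day 10 embryos at most 810 CPM. This sum was mostly TDGF1 (mean 685 CPM on Day 10). The trophectoderm sums of d10_m_453 and d10_f_454, at 32905 and 36801 CPM, were the lowest of that day, and d10_m_333 had 42010 CPM. The part of these cell types was not tested, and the pattern was noticed after the values were seen.

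**Figure D3:**
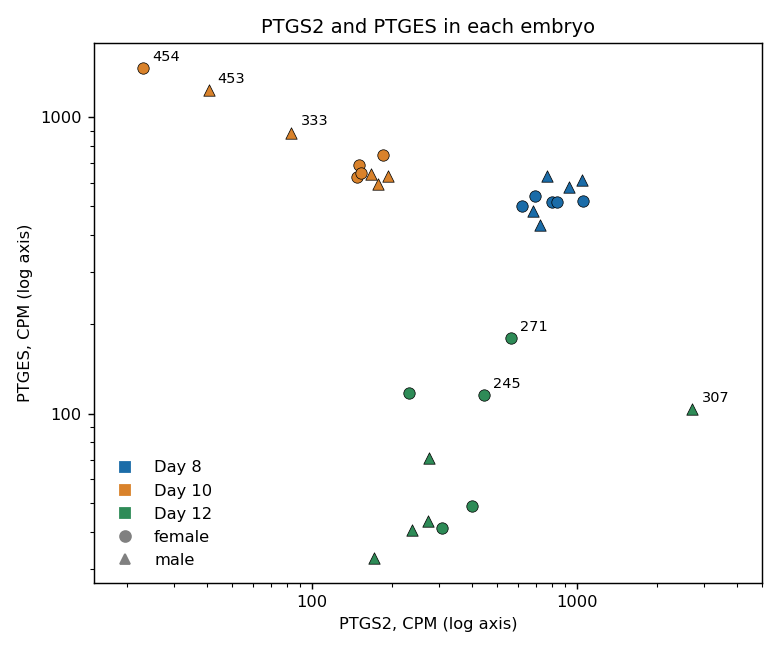
PTGES against PTGS2 in each of the 30 embryos, in CPM on log axes, coloured by day, with circles for female and triangles for male embryos and some embryo numbers. The Day 10 embryos run from d10_f_454 (22.9 CPM of PTGS2, 1464 of PTGES) to a group at 147 to 194 CPM of PTGS2, and Day 12 lies lowest in PTGES.

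Among the genes of breakdown, HPGD, the dehydrogenase that starts the inactivation of prostaglandins E2 and F2α, was low and uneven. Its median was 0.395 CPM on Day 8 (0 to 13.2), 1.31 on Day 10 (0.148 to 19.1) and 1.30 on Day 12 (0.0538 to 6.80). It was under 1 CPM in 9 Day 8 embryos, 5 Day 10 embryos and 5 Day 12 embryos, and over 5 CPM in 1, 4 and 1. d08_m_111 of Day 8 had no count, and a level of up to 3 counts could not have been told from it. No comparison was called, with log2 fold changes of 1.46 (SE 0.89, adjusted p = 0.164) from Day 8 to 10, -1.13 (SE 0.89, adjusted p = 0.281) from Day 10 to 12 and 0.33 (adjusted p = 0.753) from Day 8 to 12.

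The comparison with Day 8 rested on a single embryo, d08_m_103, which had 13.2 CPM of HPGD where the other 9 had 0 to 0.980 CPM. Without it, HPGD was 3.61 higher on the log2 scale on Day 10 (SE 0.86, adjusted p = 7.61e-04) and was called, and 5 of the 9 genes were then called (PTGS1, PTGS2, HPGD, PTGR1 and SLCO2A1). Of all 13103 genes 1917 were called in that fit, 1381 higher and 536 lower. HPGD on Day 12 against Day 8 became 2.48 without d08_m_103 (adjusted p = 0.00995) and was not called. In d08_m_103 the summed uterine markers were 8.97 CPM and the leukocyte markers 37.0 CPM, both inside the range of the other Day 8 embryos. Most of the uterine sum on Day 8 was FOXA2 (mean 6.32 CPM). d08_m_103 had counts for 6 of the 7 uterine markers found, the most of any Day 8 embryo. Only this Day 8 embryo had counts of MUC4 (0.137 CPM). The part of maternal cells in the HPGD of this embryo was not tested. This embryo also had the highest PTGR1 of Day 8 (63.1 CPM).

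On Day 10 the level of HPGD went with the number of the embryo. In the 4 embryos from d10_f_433 to d10_f_454, HPGD was 5.61 to 19.1 CPM (6.68 in d10_f_433, 19.1 in d10_m_435, 12.4 in d10_m_453 and 5.61 in d10_f_454), and in the 6 from d10_f_315 to d10_f_336 it was 0.148 to 1.65 CPM. What the numbers mark is not in the labels, the split was seen only after the values, and no test was made of it. The summed trophectoderm markers were 32905 to 38904 CPM in those 4 embryos and 42010 to 50347 CPM in the other 6. The summed uterine markers were 15.74 CPM in d10_m_435 and 12.03 CPM in d10_m_453, which had the highest HPGD of the day. In d10_f_433 and d10_f_454 the uterine sum lay within the 6.46 to 8.82 CPM of the other 6. The part of these differences, and of maternal cells, in the HPGD values was not tested. With only the 6 embryos of lower number on Day 10, HPGD against Day 8 turned to -1.39 (adjusted p = 0.260). That fit kept d08_m_103 with its 13.2 CPM on Day 8. The median of HPGD was 0.437 CPM in the 6 embryos and 0.395 CPM over all Day 8 embryos. PTGS2 and PTGES overlapped between the 4 and the 6 embryos of Day 10.

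**Figure D4:**
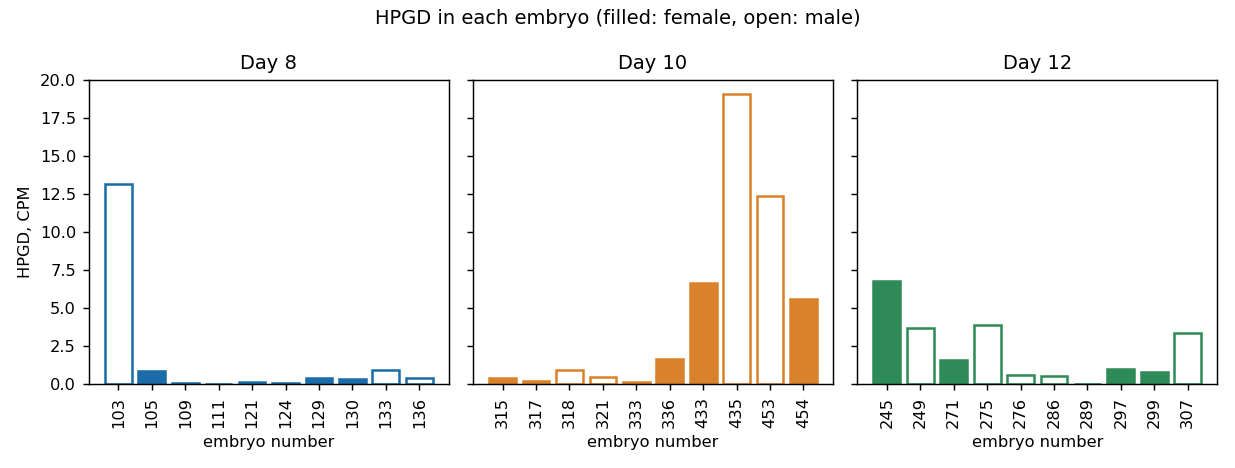
CPM of HPGD in each embryo, ordered by embryo number within Days 8, 10 and 12, with filled bars for female and open bars for male embryos. On Day 8 only d08_m_103 stands out (13.2 CPM), and on Day 10 the embryos d10_f_433 to d10_f_454 hold 5.61 to 19.1 CPM while the other 6 stay at or under 1.65.

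PTGR1, a reductase of the products of HPGD that also acts on leukotriene B4, was upregulated on Day 10. Levels were 29.7 to 63.1 CPM in Day 8 embryos (median 38.4), 82.4 to 244 CPM in Day 10 embryos (median 143) and 57.1 to 162 CPM in Day 12 embryos (median 78.6). All Day 10 embryos were above all Day 8 embryos, while Day 12 overlapped both. The log2 fold change was 1.82 (SE 0.20, adjusted p = 7.80e-09, edgeR) from Day 8 to 10, 3.54-fold higher. Day 12 against Day 10 gave -0.84 (SE 0.20, adjusted p = 0.000452) and from Day 8 to 12 it was 0.98 (adjusted p = 5.49e-05), both inside the fold limit. The latter was called in 7 of 30 fits that each left out an embryo. Without d12_f_271, which had 162 CPM where the other 9 had 57.1 to 87.9, the fall to Day 12 was called (log2 fold change -1.01). In that fit 4 of the 9 genes were called between Days 10 and 12, PTGS2, PTGES, PTGR1 and SLCO2A1. Of all 13103 genes 3071 were called there, 1988 higher and 1083 lower.

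Of the transporters, SLCO2A1, which carries prostaglandins back into cells before their breakdown, was the gene with the largest fall from Day 8 to 10 of the 9. On Day 8 it ranged from 8.99 to 23.2 CPM with a median of 14.6. Day 10 embryos had 0.819 to 2.73 CPM with a median of 1.90, and Day 12 embryos 0.600 to 7.11 CPM with a median of 5.00. All embryos of the later days were below all Day 8 embryos, and Day 12 spread to both sides of Day 10. The log2 fold change was -3.09 (SE 0.34, adjusted p = 8.24e-09, edgeR) from Day 8 to 10, 8.49-fold lower, and -1.88 (SE 0.32, adjusted p = 5.48e-06) from Day 8 to 12. Day 12 against Day 10 gave 1.205 (SE 0.33, adjusted p = 0.00219), which missed the FDR limit, but it passed under DESeq2 (adjusted p = 0.000542), the robust GLM (1.28) and without d12_f_245, d12_f_271 or d12_m_307 (1.31 to 1.33). In female embryos alone the Day 12 fall against Day 8 missed the FDR limit (-1.82, adjusted p = 0.00479).

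On Day 12 the 3 embryos with the lowest SLCO2A1 were the 3 with the highest PTGS2 and the 3 with the highest PTGES2. d12_f_271 had 0.600 CPM of SLCO2A1 and 561 of PTGS2, d12_f_245 had 0.868 and 444 CPM, and d12_m_307 had 1.47 and 2721 CPM. Their PTGES2 was 71.8, 64.2 and 52.9 CPM. In the other 7 embryos of that day SLCO2A1 was 2.13 to 7.11 CPM. The same 3 embryos had the highest summed trophectoderm markers of Day 12, at 26918, 19215 and 18962 CPM, and the part of this was not tested. The 3 embryos with the highest SLCO2A1 of Day 12 (d12_f_297, d12_m_275 and d12_f_299) were the 3 with the highest ABCC4. These overlaps were noticed after the values were seen.

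ABCC4, a pump that exports prostaglandins among many other organic anions, did not pass the test between any days. It had a mean of 58.4 ± 13.3 CPM on Day 8, 37.5 ± 7.65 on Day 10 and 37.6 ± 22.5 on Day 12 (SD, n = 10). The Day 12 embryos ranged from 7.74 CPM (d12_f_271) to 74.9 CPM (d12_f_297), wider than both earlier days. The log2 fold change was -0.64 (adjusted p = 0.0354) from Day 8 to 10, 0.01 (adjusted p = 0.981) from Day 10 to 12 and -0.63 (adjusted p = 0.0289) from Day 8 to 12. The sign of the second changed with the embryos left out, from -0.16 to 0.13.

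By role, the calls from Day 8 to 10 were lower for 1 of 5 synthases (PTGS2), higher for 1 of 2 genes of breakdown (PTGR1) and lower for 1 of 2 transporters (SLCO2A1), where 9.88% of all genes were called higher and 4.20% lower. Between Days 10 and 12 the 2 calls were both in synthesis and of opposite direction, and no gene of breakdown or transport was called, beside 14.9% of all genes higher and 8.39% lower. From Day 8 to 12, 2 of 5 synthases (PTGES and PTGES3) and 1 of 2 transporters (SLCO2A1) were called lower, and no gene of breakdown was called, beside 22.0% of all genes higher and 10.4% lower. With so few genes in a role, these counts are a description.

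Female and male embryos were compared within each day at an FDR of 0.05 in the table of that day. HPGD is not among the genes of the Day 8 table, nor PTGS1 among those of Days 10 and 12, so 8 genes were tested on each day. None was called on any day by edgeR, where 0.658%, 0.223% and 0.123% of all genes were called on Days 8, 10 and 12. No gene had an unadjusted p under 0.05 in edgeR, DESeq2 called none, and the robust GLM called none and gave 1 gene an unadjusted p under 0.05 on each of Days 10 and 12. The log2 differences, female over male, lay between -0.20 and 0.44 on Day 8, -1.19 and 0.41 on Day 10 and -0.88 and 0.83 on Day 12.

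The lowest p between the sexes was that of PTGES on Day 12. Its mean was 100.4 ± 56.9 CPM in the 5 females and 58.1 ± 29.0 CPM in the 5 males (SD), a log2 difference of 0.83 with a 95% interval of -0.19 to 1.85 (adjusted p = 0.269, edgeR). PTGS2 on Day 12 averaged 389 ± 126 CPM in the 5 females and 736 ± 1110.5 CPM in the 5 males (SD), the latter raised by d12_m_307, with an interval of the log2 difference from -2.58 to 0.81. These intervals include differences larger than 2-fold. On Day 8 the interval of PTGS2 was narrower, from -0.39 to 0.29.

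The change between days did not differ detectably between the sexes. In a fit of the 6 groups of day and sex, no gene of the 9 had an interaction at an FDR of 0.05 or at an unadjusted p under 0.05 in any of the 3 day intervals, and DESeq2 called none. Over all genes 0% were called in edgeR for each interval, with 100, 2473 and 2863 genes at an unadjusted p under 0.05, and DESeq2 called 1, 27 and 345. The lowest p was that of PTGES from Day 8 to 12, where the female change exceeded the male change by 0.86 on the log2 scale (SE 0.46, adjusted p = 0.266, edgeR).

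Arachidonic acid is released from membrane lipids before a cyclooxygenase can use it. Of the 11 listed genes of arachidonic acid release and recycling, all found, 3 were called higher and none lower from Day 8 to 10, where 9.88% and 4.20% of all genes were. From Day 10 to 12, 2 were called higher and 6 lower, beside 14.9% and 8.39% of all genes, and from Day 8 to 12, 2 higher and 3 lower, beside 22.0% and 10.4%. MGLL, which cleaves the monoacylglycerol 2-AG to arachidonic acid, had a mean of 26.1, 244 and 40.6 CPM on Days 8, 10 and 12. Its log2 fold change was 3.22 (adjusted p = 1.09e-11, edgeR) and then -2.59 (adjusted p = 2.12e-10, edgeR). DAGLA, which makes 2-AG, went from 30.6 to 68.0 and to 8.11 CPM, with log2 fold changes of 1.15 and -3.06. The first of these was not called with total counts alone (0.96), in males (adjusted p = 0.00260, edgeR), in the test against a log2 fold change of 1 (adjusted p = 0.463, edgeR) or with d10_f_433 to d10_f_454 as the only Day 10 embryos (0.98). PLA2G16, a phospholipase, was higher on Day 10 (log2 fold change 2.11), FAAH, which hydrolyses anandamide, fell from 46.7 to 4.55 CPM between Days 10 and 12 (log2 fold change -3.41), and ABHD6, another 2-AG hydrolase, had a log2 fold change of -2.17 over the same interval. PLA2G4A was higher on Day 12 than on Day 8 (log2 fold change 1.71, adjusted p = 3.96e-07, edgeR). The call of PLA2G4A was lost in females (adjusted p = 0.00165) and that of PLA2G16 in males (adjusted p = 0.00141), and both were lost in the test against a log2 fold change of 1 (adjusted p = 0.00337 and 0.00115, edgeR).

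Of the 10 genes on the receptor list 4 were found, PTGER2, PTGER4, PTGFR and PTGFRN. PTGFRN is a regulator of PTGFR and not itself a prostaglandin receptor, and it was not called in any comparison. PTGER4, a receptor for prostaglandin E2, was at 0.0516 to 0.494 CPM on Day 8, at 1.27 to 9.39 on Day 10 and at 1.05 to 3.16 on Day 12. The Day 8 embryos did not overlap either later day, and the log2 fold change was 4.61 (SE 0.41, adjusted p = 8.78e-11, edgeR) on Day 10 and 3.56 (adjusted p = 2.86e-09, edgeR) on Day 12 against Day 8. PTGFR, the receptor for prostaglandin F2α, was at or under 2.21 CPM in the embryos of Days 8 and 10 and at 0.868 to 57.7 CPM on Day 12, 4.99 higher on the log2 scale than on Day 10 (SE 0.58, adjusted p = 8.91e-09, edgeR). PTGER2 was higher on Day 12 than on Day 8 (log2 fold change 2.70, adjusted p = 0.000423, edgeR), with at most 7 counts in any Day 8 embryo, and the call was lost without d12_m_307 (log2 fold change 2.09, adjusted p = 0.00293) or without d08_m_136 (log2 fold change 2.61), in either sex alone (adjusted p = 0.0234 in females and 0.0158 in males) and in the test against a log2 fold change of 1 (adjusted p = 0.00659). Of these 4 genes, 1 was called higher from Day 8 to 10, 1 from Day 10 to 12 and 3 from Day 8 to 12, and none lower. Of all genes 9.88%, 14.9% and 22.0% were called higher.

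**Figure D5:**
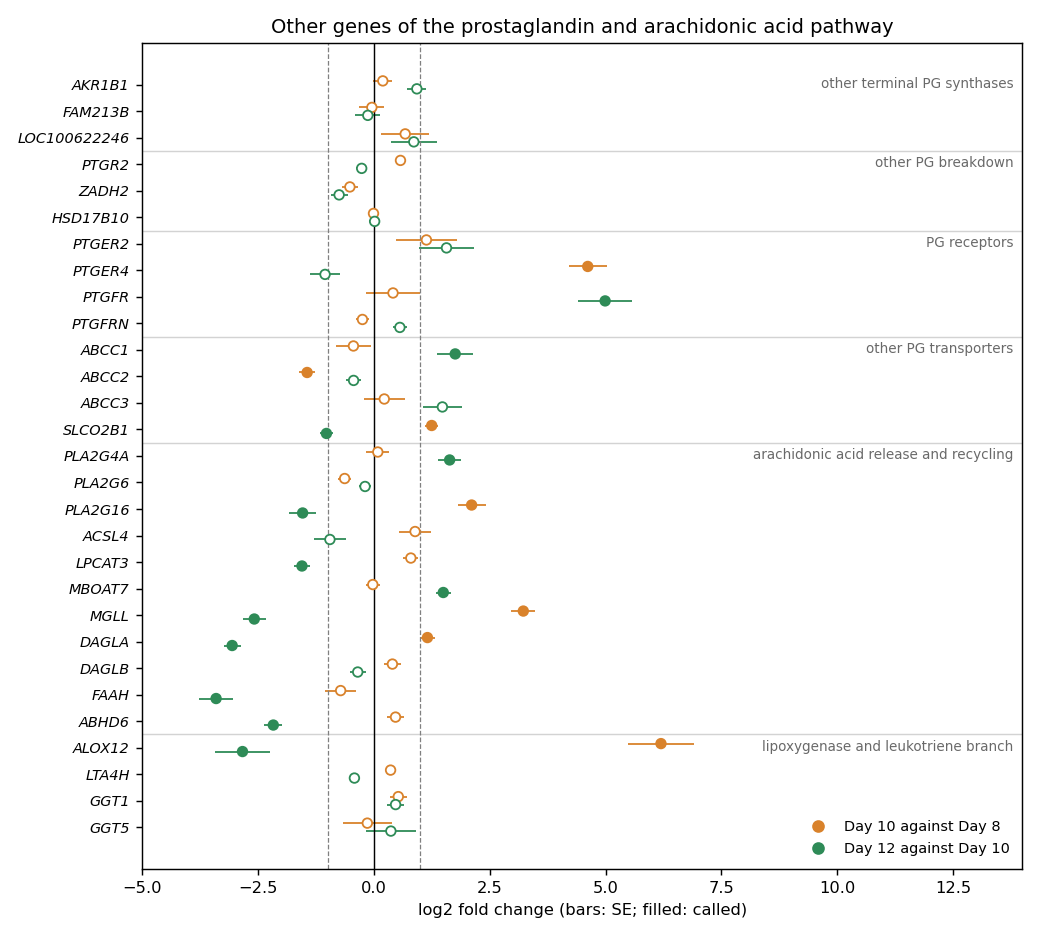
Log2 fold change of the 29 other pathway genes that were found, grouped by list, for Day 10 against Day 8 and Day 12 against Day 10, with bars for the SE, filled points for DEG and dashed lines at 1 and -1. PTGER4 (4.61) and MGLL (3.22) lie to the right on Day 10, PTGFR (4.99) on Day 12, and FAAH (-3.41), DAGLA (-3.06) and MGLL (-2.59) to the left on Day 12.

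Of 10 listed genes for other terminal synthases 3 were found, and AKR1B1, an aldo-keto reductase with prostaglandin F synthase activity, was the only one called. It had a mean of 340 ± 21.3 CPM on Day 8, 388 ± 45.5 on Day 10 and 737 ± 439 on Day 12 (SD, n = 10). Its log2 fold change was 1.11 from Day 8 to 12 (adjusted p = 1.51e-05, edgeR), where 22.0% of all genes were called higher. It was not called without d12_m_276 (0.87), under the robust GLM (0.88), in females (0.76), in males (adjusted p = 0.00132) or in the test against a log2 fold change of 1 (adjusted p = 0.363, edgeR). Of 3 further genes of breakdown, all found, only ZADH2 was called, lower from Day 8 to 12, where 10.4% of all genes were called lower. Its mean was 48.6 CPM on Day 8 and 20.1 CPM on Day 12 (log2 fold change -1.27). The call was lost in the test against a log2 fold change of 1 (adjusted p = 0.0759).

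Of 9 further transporters 4 were found, and 1 was called higher and 1 lower in each comparison. Of all genes 9.88%, 14.9% and 22.0% were called higher from Day 8 to 10, Day 10 to 12 and Day 8 to 12. The shares called lower were 4.20%, 8.39% and 10.4%. Among the 4, ABCC2 was lower on Day 10 than on Day 8 (487 to 179 CPM, log2 fold change -1.44) and on Day 12 than on Day 8 (-1.89). The former was not called in the test against a log2 fold change of 1 (adjusted p = 0.0168). SLCO2B1 was higher on Day 10 (log2 fold change 1.25) and lower again on Day 12 (-1.03), a value that lay inside the fold limit without d10_f_317, d10_f_336, d10_m_333, d12_f_245 or d12_f_271 (down to -0.963), under the robust GLM (-0.993), with total counts alone (-0.84) and in males (-0.83). In the test against a log2 fold change of 1 neither change of SLCO2B1 was called (adjusted p = 0.127 and 0.762). ABCC1 was higher on Day 12 than on Day 10 (1.75), a call lost in females (adjusted p = 0.0371), in males (adjusted p = 0.00260) and in the test against a log2 fold change of 1 (adjusted p = 0.0397). ABCC3, with at most 34 counts in any embryo, was higher on Day 12 than on Day 8 (1.70), a call lost in 11 of 30 fits that each left out an embryo, in females (adjusted p = 0.0323), in males (adjusted p = 0.0170) and in the test against a log2 fold change of 1 (adjusted p = 0.0534).

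In the lipoxygenase branch 4 of 12 listed genes were found, and 1 of them was called in each comparison. Of all genes 9.88% were called higher from Day 8 to 10, 8.39% lower from Day 10 to 12 and 22.0% higher from Day 8 to 12. The gene called each time, in these directions, was ALOX12, which turns arachidonic acid into 12-HETE. It was at 0.211 to 1.81 CPM on Day 8, 3.41 to 203 on Day 10 and 2.36 to 18.9 on Day 12, with log2 fold changes of 6.20 from Day 8 to 10, -2.84 from Day 10 to 12 and 3.36 from Day 8 to 12. The second was not called in females (adjusted p = 0.00805), in males (adjusted p = 0.00782), in the test against a log2 fold change of 1 (adjusted p = 0.00229) or without d10_f_454, d10_m_453 and d12_m_307 together (-1.57, adjusted p = 0.00660), and the third was not called in females (adjusted p = 0.00311) or males (adjusted p = 0.00831).

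The genes whose log2 level was most like that of 4 of the prostaglandin genes over the 30 embryos were taken as a description, since embryos of a day share their stage. PTGES was most like MFSD7 (Pearson r = 0.987), LAD1 (0.982) and LMO1 (0.977), a transcriptional cofactor with a mean of 50.7, 83.6 and 9.56 CPM on Days 8, 10 and 12. PTGS2 was most like GLE1 (r = 0.885), PPM1G (0.883) and ENOPH1 (0.881). SLCO2A1 was most like ARID1A (r = 0.910), ST6GALNAC1 (0.900) and PCNX3 (0.893). HPGD was most like PAX2 (r = 0.920), ENTPD1 (0.912) and LOC100621701 (0.909).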

How the data were processed

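Whole single embryos chosen for high RNA integrity were sequenced (TruSeq Stranded mRNA, single-end). The authors trimmed, mapped and counted the reads in Galaxy, using Trim Galore and the NCBI annotation of Sscrofa11.1, and left out genes of low CPM. The aligner, the counter and any use of strand are not given in the sources used here. The deposited tables hold raw counts per gene, 13103 genes over all embryos and 11405, 11675 and 12220 on Days 8, 10 and 12. All identifiers matched the RefSeq gene table of Sscrofa11.1.

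Tests used R 4.3.3, edgeR 4.0.16 and DESeq2 1.42.0. Day comparisons came from 1 quasi-likelihood fit of 3 groups (TMM factors, robust dispersion), sex comparisons from the table of each day. The SE is the log2 fold change over the square root of F. A floor of 3 counts, 0.434 CPM in the smallest library, covers counting error only. No embryos of a group agreed within sampling noise (60 pairs). Members and lists were chosen with earlier results of these data known. Of each list, up to 4 called genes with the largest change per comparison are named, and the 3 genes most correlated with PTGS2, PTGES, HPGD and SLCO2A1 over log2 levels (prior count 2). Scripts were tested on simulated data. Alternatives were DESeq2, edgeR's robust GLM (used in the study), RLE or no scaling factors, a minimum of 10 counts in 5 embryos, a sex term, fits of 2 days or 1 sex, a test beyond a log2 fold change of 1, and each embryo left out. Fits without embryos that stood apart, or with part of the Day 10 embryos, were chosen after seeing the data.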

Additional observations from a re-analysis of the deposited data

Results flagged for a closer look

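Of 81 sets of embryos tested for a value apart by Dixon's ratio (each of 9 genes in 3 days of 10 embryos and 6 groups of 5), 12 held such a value. For normally distributed values chance gives about 1 set in 20. CPM values were used without a log and need not be normal, so that rate may not hold here. The sets of a day and of its sexes share embryos. PTGS2 in d12_m_307 (2721 CPM, apart over the day and among males) lay apart from 171 to 561 CPM in the other Day 12 embryos, and this embryo also had the highest PTGES3 of the Day 12 males (388 CPM against 303 to 317.1). In d10_f_454, PTGS2 (22.9 CPM against 147 to 185 in the other females) and PTGES (1464 CPM against 627 to 742) both lay apart, in opposite directions. In d08_m_103, HPGD (13.2 CPM against 0 to 0.980, over the day and among males) and PTGR1 (63.1 CPM against 31.9 to 38.4 in the other males) were high. HPGD was also high in d12_f_245 (6.80 CPM against 0.0538 to 1.62 in the other females), the smallest library. This embryo also had the highest leukocyte and hypoblast sums of Day 12 (338 and 6677 CPM). Its uterine sum of 50.9 CPM lay within the range of that day. PTGR1 was high in d12_f_271 (162 CPM against 57.1 to 87.9, over the day and among females), and PTGS1 in d08_f_105 (1.69 CPM against 0.494 to 1.09). No cause was tested for any of these values.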

How the results depend on the processing

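The number of the 9 genes called was 3, 2 and 3 from Day 8 to 10, Day 10 to 12 and Day 8 to 12. It was 5 from Day 8 to 10 under the robust GLM, which added PTGS1 and HPGD (2.70) and called 2222 of all 13103 genes. From Day 10 to 12 it was 1 with 2 days in the fit, in female or male embryos alone and in the test against a log2 fold change of 1, PTGES in each case, with PTGS2 at 2.09 (adjusted p = 0.00107), 1.498 (0.00402), 2.48 (0.00911) and 2.09 (0.00804). From Day 8 to 12 it was 1 in the test against a log2 fold change of 1 (PTGES). DESeq2, which gave PTGS2 no p, kept the numbers but not the genes. It called PTGS1, PTGR1 and SLCO2A1 from Day 8 to 10, and PTGES and SLCO2A1 from Day 10 to 12. Leaving out each embryo gave 3 to 5, 2 to 4 and 3 to 4 genes, and 0 on each day between the sexes. In males alone PTGS2 missed the FDR limit from Day 8 to 10 (-2.65, adjusted p = 0.00736), as it did with d10_f_433 to d10_f_454 as the only Day 10 embryos (-3.00, 0.00111). Without d10_f_454, d10_m_453 and d12_m_307 together, PTGS2 was -2.38, 1.04 and -1.34, called each time.

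Signs turned only for values that did not pass the test. From Day 10 to 12, ABCC4 was -0.12 under the robust GLM, -0.030 with 2 days in the fit, -0.11 in males and -0.16 to 0.13 with an embryo left out, and PTGS1 was -0.30 in males. PTGES2 from Day 8 to 10 was -0.088 with total counts alone and -0.094 with d10_f_433 to d10_f_454 as the only Day 10 embryos. HPGD from Day 8 to 12 was -0.32 in males, and from Day 8 to 10 it was -1.39 with d10_f_315 to d10_f_336 as the only Day 10 embryos. Both of these HPGD fits kept d08_m_103. Of all log2 fold changes with an embryo left out 1577 kept both their direction and their side of the threshold and 43 did not, and of those under the other settings 560 kept both and 63 did not. The cause of these changes was not tested.

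Over all genes, 1845, 3050 and 4255 were called between days, and 675, 1574 and 2403 in the test against a log2 fold change of 1. In females 977 and in males 1067 were called from Day 8 to 10, and 2327 and 2003 from Day 10 to 12. With 2 days in the fit 2821 were called from Day 10 to 12. With total counts alone 18 were called between the sexes on Day 10. Between the sexes, 75, 26 and 15 genes were called by edgeR. DESeq2 called 1.13% of the genes tested on Day 8, where edgeR called 0.658%, and 53 and 144 genes on the later days, and the robust GLM 156, 42 and 101. With an embryo left out edgeR called at least 44 on Day 8 (without d08_f_129) and 13 on Day 10 (without d10_m_318), and 14 to 16 on Day 12. Total counts alone moved the median log2 fold change of all genes from 0.03, 0.04 and 0.09 to -0.15, 0.24 and 0.10, and the share of higher among the calls from 70.2% to 55.9% from Day 8 to 10 and from 64.0% to 72.9% from Day 10 to 12, with SLCO2A1 then called from Day 10 to 12 (1.42). No paired analysis was possible because no embryo number occurs in more than 1 group. The counts of PTGS1 (at most 36) and of HPGD in most embryos are too low for firm statements.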
